A study of Rattus norvegicus with 20 samples.

Results

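The genes described here encode the NF-kappaB transcription factor subunits and the proteins that restrain them, and their blood RNA was followed in rats before and after acetaminophen (APAP), an analgesic that injures the liver when overdosed. They were chosen as the probe sets that the platform's annotation gives exactly 1 gene symbol, equal to Nfkb1, Nfkb2, Rel, Rela, Relb, Nfkbia, Nfkbib, Nfkbie or Tnfaip3. Of these 9 genes, 7 were measured, each by 1 probe set, among 31042 probe sets and 14217 genes in all. The probe sets were 1370968_at for Nfkb1, 1375989_a_at for Nfkb2, 1372853_at for Rela, 1376160_at for Relb, 1389538_at for Nfkbia, 1367943_at for Nfkbib and 1385641_at for Tnfaip3. Rel and Nfkbie have no such probe set in that annotation and were not analysed here. Each of the 7 passed the filter on low signal, which leaves out probe sets under 100 on all arrays.

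The samples were blood of male Wistar rats, an outbred strain, whose age is not given in the sources used here. Resistant rats were sampled before dosing (R) and 24 h after 1 oral dose of 1200 mg/kg APAP (RA), and susceptible rats likewise before (S) and after (SA), with 5 arrays in each of the 4 groups. The sub-groups were picked from the dosed rats by serum alanine transaminase (ALT, an enzyme that leaks from injured liver cells) after dosing, the lowest values being called resistant and the highest susceptible. All these rats were fasted and given APAP after the predose bleed, and red cells were lysed before RNA was extracted. The labels give the retro-orbital plexus as the bleeding site at both times, whereas the study's methods name the inferior vena cava for the second. By the methods, both bleeds were made under anaesthesia. Vehicle-treated rats were on none of the arrays, so effects of APAP, fasting, an earlier bleed under anaesthesia, the day and possibly the bleeding site cannot be told apart in any postdose change.

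NF-kappaB is a family of dimers built from the products of Nfkb1, Nfkb2, Rel, Rela and Relb. In resting cells the IkappaB proteins, encoded by Nfkbia, Nfkbib and Nfkbie, hold the dimers in the cytoplasm, and signals from cytokine and Toll-like receptors activate the IkappaB kinase (IKK), which marks IkappaB for degradation and frees the dimers to enter the nucleus. Several inhibitor genes, Nfkbia and Tnfaip3 among them, are themselves NF-kappaB targets and form negative feedback, Tnfaip3 encoding a ubiquitin-editing enzyme that shuts the pathway down upstream of IKK. In blood the pathway is best known for the response of neutrophils, monocytes and lymphocytes to infection and injury, and much of its activity is set by protein turnover and location, which RNA levels do not measure.

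NF-kappaB dimers bind the kappaB site, a motif of 10 bases. The canonical kappaB motif was searched on both strands in 300 bases of each promoter, 250 before and 50 after the transcription start, as RefSeq gives them for the rat assembly GRCr8, and 7.51% of 33469 such windows held a match. Of the 7 measured members 6 have a window, and the windows of 4 of them, Nfkb1, Nfkb2, Nfkbia and Tnfaip3, held a match, whereas those of Rela and Nfkbib held none. The 250 bases before the start of Tnfaip3, on the minus strand at chr1:15543980-15544229, are shown because its RNA changed most; capitals mark the matches, which begin 170, 67 and 55 bases before the start.
Tnfaip3 upstream: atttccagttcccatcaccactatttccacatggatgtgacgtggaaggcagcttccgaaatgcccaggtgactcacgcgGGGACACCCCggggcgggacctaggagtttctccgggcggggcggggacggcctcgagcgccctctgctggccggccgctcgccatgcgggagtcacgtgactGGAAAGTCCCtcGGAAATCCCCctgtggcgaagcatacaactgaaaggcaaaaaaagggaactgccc
For the other members with a match, 20 bases around it are shown, with the match in capitals, to let their sites be compared with those of Tnfaip3. The Nfkb2 site, on the plus strand at chr1:255108349-255108368, and the Nfkbia site, on the minus strand at chr6:78597089-78597108, lie just before the start, and the Nfkb1 site, on the minus strand at chr2:226805445-226805464, begins at base 4 of the transcript.
Nfkb2 site: ttttcGGGACTTTCCtaaga
Nfkbia site: ggcttGGAAATTCCCcgcgc
Nfkb1 site: tcagtGGGAATTTCCagcca
The match in Nfkb2 and the second match of Tnfaip3, read on its opposite strand, have the same 10 bases, GGGACTTTCC, and the Nfkb1 match and the opposite strand of the Nfkbia match share GGGAATTTCC. A match describes these letters only and is no measurement of binding.

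After scaling to a common array median of 1000, signals were converted to log2, so that levels below are log2 scaled signal and changes are differences of it. Members ranged from 11.99 to 17.22 on any array, above the highest signal of 8.12 in 3 bacterial trp probe sets, which have no counterpart in rat RNA. The arrays stood close to one another (median correlation with the others of the same group 0.927 to 0.936), and none were identical. The mean log2 ratio of 3' to 5' beta-actin probe sets, a sign of RNA quality, lay between 0.76 and 0.87 in the 4 groups. Levels of different members were not compared, since probes differ in their response.

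After dosing, 2 of the 3 inhibitors measured, Tnfaip3 and Nfkbib, fell, and none of the 4 subunits passed the test. In the mean change of both sub-groups, Tnfaip3 fell by 44.3% (log2 change −0.84 ± 0.14, SE, n = 10 postdose and 10 predose arrays, limma with Benjamini-Hochberg adjusted p = 0.000580) and Nfkbib fell by 20.5% (−0.33 ± 0.07, limma, adjusted p = 0.00268). The fit treated the arrays as independent, although by the methods the same rats were bled before and after dosing. The labels do not tie replicate numbers to rats. Over all 30747 probe sets tested, 6% were called lower and 6.28% higher in this comparison, or 10.6% and 10.9% of the probe sets whose average brightness reached the array median, as that of each member did. The median change of the members was −0.21, against 0.01 over all probe sets.

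**Figure D1:**
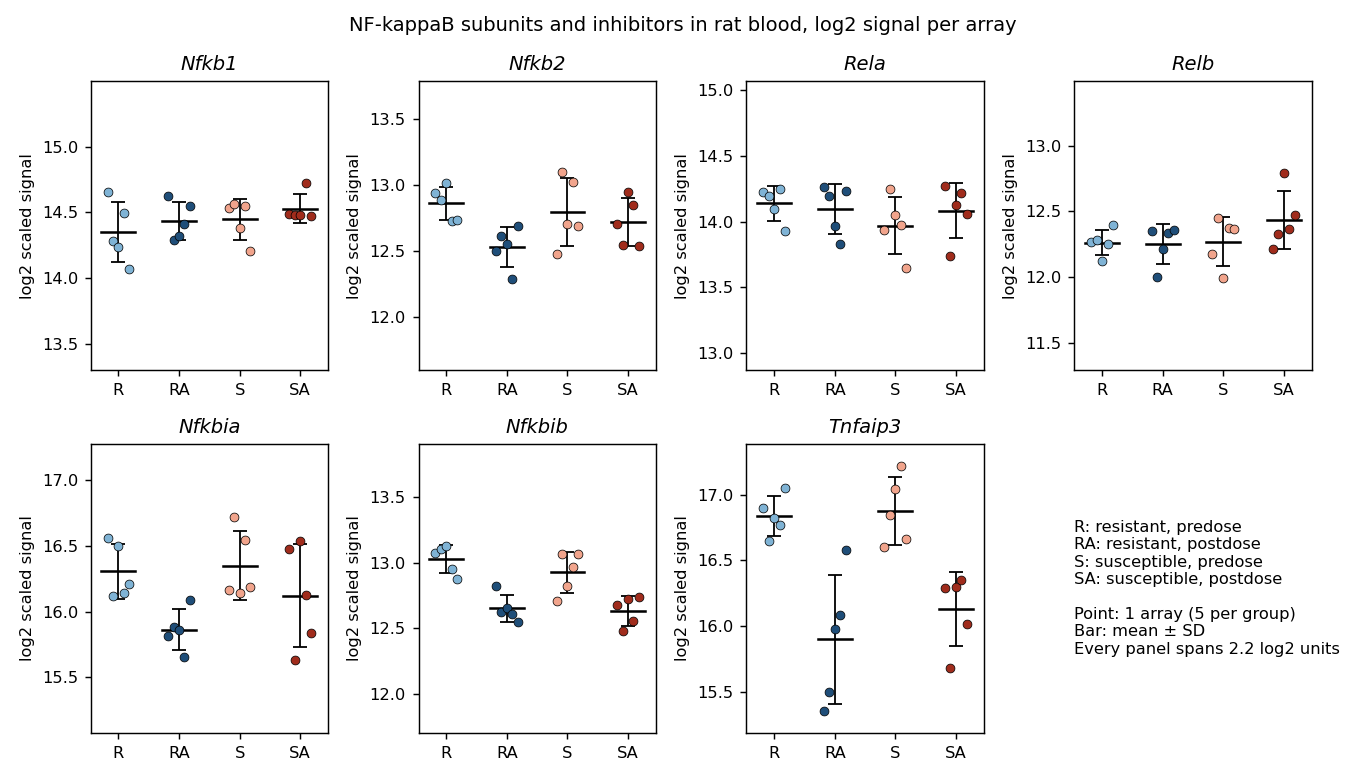
Log2 scaled signal of the 7 members (y axis) in the groups R and RA (resistant, before and after APAP) and S and SA (susceptible, before and after); points are arrays, 5 per group, and bars give the mean ± SD, with the same span of 2.2 log2 units in every panel. All 10 postdose arrays of Tnfaip3, at 15.35 to 16.58, lie below all 10 predose arrays, at 16.60 to 17.22, whereas the 4 groups of Nfkb1, Rela and Relb overlap.

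Tnfaip3 was the member that changed most. Its level was 16.90, 16.65, 16.82, 16.77 and 17.05 in R (replicates 1 to 5) and 15.35, 15.50, 15.98, 16.08 and 16.58 in RA. In S it was 16.60, 16.85, 17.05, 17.22 and 16.67, and in SA it was 16.29, 15.68, 16.30, 16.35 and 16.01. Every postdose array was below every predose array in both sub-groups, which held for 0.865% of all probe sets. The spread was widest in RA (SD 0.49, against 0.15 in R, 0.26 in S and 0.28 in SA), where replicates 1 and 2 were lowest and replicate 5 lay close to the predose range.

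In resistant rats Tnfaip3 fell by 0.94 on the log2 scale (95% confidence interval −1.36 to −0.51, limma, adjusted p = 0.00998). In susceptible rats it fell by 0.75 (−1.17 to −0.32, limma, adjusted p = 0.0324). The difference between these changes was 0.19 (−0.41 to 0.79, limma, adjusted p = 0.952), an interval that holds both no difference and one as large as the change in susceptible rats. Ordered by level, the groups were RA, SA, R and S, and the step from SA to R, of 0.71, was the only one between neighbours that passed the test (limma, adjusted p = 0.0441); RA did not differ from SA, nor R from S, beyond their spread. The call in susceptible rats ended without any 1 of 6 arrays (susceptible predose replicate 2, 3 or 4, or postdose replicate 2, 3 or 5), with a change of −0.79 to −0.64 (limma, adjusted p = 0.0504 to 0.0858), whereas the call in resistant rats held without each array in turn. With the 10 arrays of a sub-group fitted alone the change gave an adjusted p of 0.0576 (resistant) and 0.0583 (susceptible). By the methods' t-test with adjustment it gave 0.148 (resistant) and 0.0730 (susceptible). Neither setting was run for the mean change of both, which passed the test in the 8 other alternatives tried on it and without each array in turn.

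Nfkbib, which encodes IkappaB beta, was 13.07, 13.10, 13.13, 12.95 and 12.88 in R and 12.83, 12.63, 12.65, 12.61 and 12.55 in RA. It was 12.71, 13.06, 12.82, 12.97 and 13.07 in S and 12.68, 12.48, 12.72, 12.56 and 12.74 in SA. R and RA did not overlap, and S and SA overlapped only between S replicate 1 and SA replicates 3 and 5. Nfkbib fell by 0.37 in resistant rats (−0.57 to −0.17, limma, adjusted p = 0.0289). In susceptible rats the change was −0.29 (−0.49 to −0.09) and did not pass the test (limma, adjusted p = 0.0811). The difference between these changes was 0.08 (−0.20 to 0.36, limma, adjusted p = 0.958). The call in resistant rats ended without any 1 of 7 arrays (resistant predose replicate 1, 2 or 3, or postdose replicate 2, 3, 4 or 5), with a change of −0.37 to −0.35 (limma, adjusted p = 0.0545 to 0.0805), and with the 10 arrays of resistant rats fitted alone (adjusted p = 0.0830), and in susceptible rats a call arose without predose replicate 1 (−0.35, adjusted p = 0.0448).

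Nfkbia encodes IkappaB alpha, the inhibitor that is degraded and made anew fastest after a stimulus. It was 16.56, 16.12, 16.50, 16.14 and 16.21 in R and 15.82, 15.88, 15.86, 15.66 and 16.09 in RA. It was 16.17, 16.72, 16.14, 16.54 and 16.19 in S and 16.47, 15.64, 16.54, 16.13 and 15.83 in SA. All RA arrays were below all R arrays, whereas SA replicates 1 and 3 lay within the range of S. The change was −0.44 (−0.81 to −0.08, limma, adjusted p = 0.175) in resistant and −0.23 (−0.60 to 0.14, limma, adjusted p = 0.538) in susceptible rats, and the mean change was −0.34 (−0.60 to −0.08, limma, adjusted p = 0.0889). None of these passed the test, but the mean change did with quantile normalization (−0.41, adjusted p = 0.00936), with a spread that follows intensity (adjusted p = 0.0317) and without susceptible postdose replicate 3 (−0.39, adjusted p = 0.0460).

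Nfkb2 encodes the precursor whose processed form pairs with the Relb product in the non-canonical pathway. It was 12.94, 12.88, 13.02, 12.73 and 12.73 in R and 12.50, 12.62, 12.55, 12.28 and 12.69 in RA, without overlap. It was 12.48, 13.10, 12.70, 13.03 and 12.69 in S and 12.70, 12.55, 12.95, 12.85 and 12.53 in SA, which overlapped over most of their range. The change was −0.33 in resistant rats (limma, adjusted p = 0.166), −0.08 in susceptible rats (adjusted p = 0.799) and −0.21 in the mean of both (adjusted p = 0.163). The difference between sub-groups was 0.25 (−0.13 to 0.63, limma, adjusted p = 0.843). In all, 4 of 7 members (Nfkb2, Nfkbia, Nfkbib and Tnfaip3) had every RA array below every R array, as 3.53% of all probe sets did, and 1 of 7 (Tnfaip3) had every SA array below every S array, as 2.91% did.

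Nfkb1, whose processed product is the usual partner of the Rela product, averaged 14.35 ± 0.23 (SD, n = 5) in R, 14.44 ± 0.14 in RA, 14.45 ± 0.16 in S and 14.53 ± 0.11 in SA. Rela, which encodes the subunit carrying the main transactivation domain, averaged 14.14 ± 0.13, 14.10 ± 0.19, 13.97 ± 0.22 and 14.08 ± 0.21 in the same order. Relb, the subunit of the non-canonical pathway, averaged 12.26 ± 0.10, 12.25 ± 0.15, 12.27 ± 0.18 and 12.43 ± 0.22. Neighbouring groups overlapped in all 3 genes. The mean changes were 0.08 (−0.09 to 0.26) for Nfkb1, 0.04 (−0.16 to 0.23) for Rela and 0.08 (−0.10 to 0.25) for Relb (limma, adjusted p = 0.609, 0.869 and 0.661), and none of the 3 intervals reached the mean change of Tnfaip3 or of Nfkbib.

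**Figure D2:**
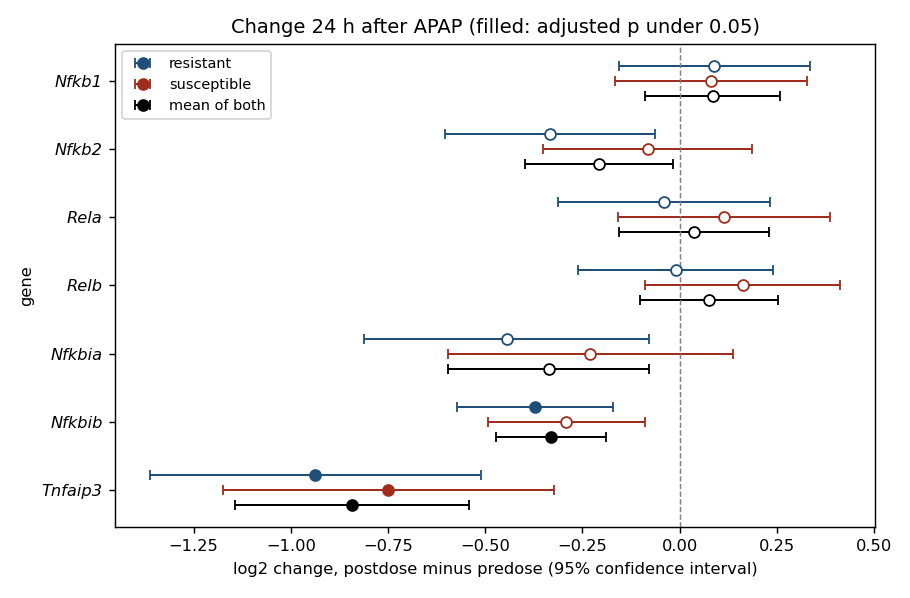
Log2 change from before to after APAP (x axis) of each member (y axis) in resistant rats, in susceptible rats and in the mean of both, with 95% confidence intervals; filled points passed the test at an adjusted p under 0.05. Filled points are Tnfaip3 in all 3 comparisons and Nfkbib in resistant rats and in the mean of both.

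In resistant rats 2 of 7 members were called lower and none higher, where 2.6% of all probe sets were called lower and 2.51% higher (4.76% and 4.44% of those at or above the array median). In susceptible rats 1 of 7 was called lower and none higher, where 2.8% of all probe sets were called lower and 3.86% higher (4.86% and 6.91% of those at or above the array median). The median change of the members was −0.33 in resistant and −0.08 in susceptible rats. The difference between the 2 sub-groups' changes was called for 0 members and for 0% of all probe sets (limma, 2122 probe sets and 0 members at an unadjusted p under 0.05), and the interaction was between −0.01 and 0.25 for the 7 members.

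Before dosing, no member differed between susceptible and resistant rats, the comparison that asks whether susceptibility can be seen ahead of exposure. The differences ran from −0.17 for Rela (95% confidence interval −0.46 to 0.12) to 0.10 for Nfkb1 (−0.21 to 0.41), each with an adjusted p that rounded to 1 in limma, and 0 members had an unadjusted p under 0.05. Of all 30416 probe sets tested before dosing, 0.00329% were called, which is 1 probe set. After dosing, the differences ran from −0.02 for Nfkbib (−0.22 to 0.18) to 0.26 for Nfkbia (−0.11 to 0.63) and 0 members were called (limma, smallest adjusted p 0.691, 0 members at an unadjusted p under 0.05), where 0.143% of all probe sets were.

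The samples were blood after red cell lysis, a mixture in which fewer cells of a type and less RNA per cell cannot be told apart. Platelet and red cell markers still gave signal, with group means of 17.00 to 17.23 and 16.33 to 16.69. Marker genes of several cell types moved between predose and postdose arrays together with Tnfaip3 and Nfkbib. Of 8 natural killer cell markers 7 rose in the mean change (median 1.104). The log2 of their summed scaled signals, called the sum below, ran from 17.52 to 18.19 in R and 17.54 to 17.92 in S against 18.50 to 19.02 in RA and 18.33 to 18.99 in SA. The brightest genes of a list weigh most in it. All 5 B cell markers tested fell (median −0.46), with sums of 16.64 to 17.20 in R, 16.56 to 16.95 in S, 16.33 to 16.67 in RA and 16.20 to 16.59 in SA. Of 10 neutrophil markers 4 rose and 1 fell (median 0.45), with sums of 19.00 to 19.53 in R, 19.06 to 19.42 in S, 19.69 to 19.99 in RA and 19.71 to 20.24 in SA. Among the other lists, calls were made for monocytes (2 of 9 rose, 1 fell), T cells (1 of 13 rose, 2 fell), red cells (1 of 5 fell), endothelium (2 of 4 fell), platelets (0 of 5) and liver (0 of 6). In susceptible rats alone 1 of 6 liver markers, Alb for albumin, was called higher (3.17, limma, adjusted p = 0.0161), and the sum of the liver markers ran from 11.56 to 14.56 in SA against 10.72 to 11.51 in S, 10.94 to 11.68 in R and 10.90 to 11.51 in RA. These signals were low, with a mean over the liver markers of 8.20 in R, 8.06 in RA, 8.08 in S and 9.04 in SA, near the highest trp signal of 8.12. The part of these shifts in the changes of Tnfaip3 and Nfkbib was not tested.

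**Figure D3:**
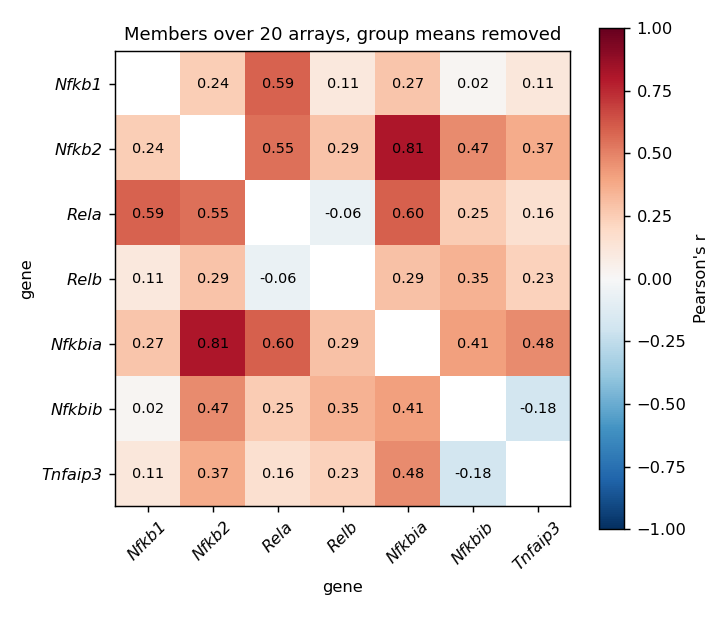
Pearson's r between the log2 signals of each pair of members (both axes), over 20 arrays with each group's mean removed; colour runs from −1 (blue) to 1 (red). Nfkb2 with Nfkbia, at 0.81, is the highest of 21 pairs, and Nfkbib with Tnfaip3, at −0.18, the lowest.

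With group means removed, r was positive in 19 of 21 pairs, with a median of 0.29, and exceeded 0.5 in 4 pairs. Against all 15257 probe sets that reached the array median, the median r of a member was 0.30 for Rela, 0.22 for Nfkb1 and Nfkb2, 0.18 for Nfkbia, 0.07 for Nfkbib, 0.01 for Tnfaip3 and −0.03 for Relb. The median over member pairs thus lies near the value of Rela, the highest of these, and above those of the other members. Nfkb2 and Nfkbia were closest (r = 0.81, Spearman's rho = 0.82, and r = 0.80 without the 2 arrays farthest from the median of Nfkb2), followed by Rela with Nfkbia (0.60) and Nfkb1 with Rela (0.59). With 2 arrays left out in the same way, r was 0.46 for Rela with Nfkbia and 0.59 for Nfkb1 with Rela. Tnfaip3 and Nfkbib, the members that fell, had an r of −0.18 (rho −0.28) with each other within groups, and of −0.57 with 2 arrays left out, so this value depends on few arrays. These values describe 20 arrays that, by the methods, hold blood of 10 rats drawn on 2 occasions, and arrays share any error of extraction or labelling across all their probe sets, so they carry no p-value.

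Among 11822 probe sets with 1 gene symbol and an average signal no lower than the array median, the patterns most like Tnfaip3 over the 20 arrays were those of Dnajb9 (Pearson's r = 0.948, Spearman's rho = 0.914), which encodes a chaperone of the endoplasmic reticulum, Nap1l5 (0.942 and 0.929), related to nucleosome assembly proteins, and Cks2 (0.918 and 0.926), a subunit of cyclin-dependent kinases. All 3 fell, with mean log2 changes of −0.71, −1.39 and −1.06, and with group means removed r with Tnfaip3 was 0.83, 0.83 and 0.82. Those most like Nfkbib were Nrp1, which encodes neuropilin-1 (0.903 and 0.868), Cdc42ep4, an effector of the GTPase Cdc42 (0.897 and 0.871), and Gjb2, a gap junction protein (0.877 and 0.846). They fell too, with mean log2 changes of −1.05, −1.13 and −2.001, and with group means removed r with Nfkbib was 0.74, 0.65 and 0.59. Both sets of genes were picked by correlation over the same 20 arrays, which hold the falls of Tnfaip3 and Nfkbib. Genes that fell were thus favoured by the choice, and the r with group means removed is no separate support.

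Other genes of the pathway were followed as 6 lists of 102 genes, of which 91 were tested, each by its brightest probe set. In the mean change 20 of the 91 rose and 8 fell, where 6.28% of all probe sets were called higher and 6% lower, or 10.9% and 10.6% of those that reached the array median. In resistant rats 11 rose and 8 fell, against 2.51% and 2.6% of all probe sets (4.44% and 4.76% of the brighter ones). In susceptible rats 21 rose and 3 fell, against 3.86% and 2.8% (6.91% and 4.86% of the brighter ones), but for 0 of the 91 did the difference between the 2 changes pass the test. The median change over the 91 genes was 0.10 in the mean of both, −0.04 in resistant and 0.21 in susceptible rats, against 0.01, −0.01 and 0.01 over all probe sets.

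Most calls among ligands and receptors, which start the signal, were upward, with 6 of 16 higher and 1 lower (median 0.28). Il1r1, the signalling receptor of interleukin-1, rose by 1.52 (limma, adjusted p = 8.58e-07), its co-receptor Il1rap by 1.36 (1.18e-06), the ligand Il1b by 1.33 (2.41e-05) and the TNF receptor Tnfrsf1a by 0.98 (6.66e-05). Among adaptors and ubiquitin ligases 4 of 17 rose and 1 fell (median 0.04). Myd88, the adaptor of interleukin-1 and most Toll-like receptors, rose by 0.74 (limma, adjusted p = 5.34e-05), Ticam1, the adaptor of the other Toll-like branch, by 0.81 (0.000335) and Traf1, an adaptor of TNF receptors, by 0.94 (0.00337), while the ubiquitin ligase Traf6 fell by 0.56 (0.00178).

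Of 15 genes for IKK and the kinases above it, 1 rose and 2 fell (median −0.04). Map3k8, a kinase that is bound by the Nfkb1 precursor, fell by 0.72 (limma, adjusted p = 3.05e-05) and Tab3, a partner of the kinase TAK1, by 0.38 (0.0113, but 0.0538 with the replicate number as a block). Ripk1, a kinase of the TNF receptor complex, rose by 0.26 (0.0323), a call that ended without any 1 of 8 arrays. Of 11 other inhibitors and deubiquitinases, 3 rose and 2 fell (median 0.13). Otud7b (0.75, limma, adjusted p = 0.00161), Cyld (0.56, 0.00263) and Tnip2 (0.52, 0.000616), of which the first and second encode deubiquitinases and the third a protein that binds the Tnfaip3 product, rose while Tnfaip3 itself fell. Zc3h12a, an RNase that degrades cytokine messages, fell by 0.75 (0.0264), a call that ended without any 1 of 3 arrays, and of 3 atypical IkappaB genes Nfkbiz fell by 0.56 (0.0196). These are mean changes of both sub-groups. In resistant rats Tnip2 passed the test (0.50, limma, adjusted p = 0.0264), but Otud7b (0.66, 0.0737) and Cyld (0.20, 0.616) did not. In susceptible rats 3 of the other inhibitors and deubiquitinases were called higher.

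Of 29 target genes 6 rose and 1 fell (median 0.23). Cd83, a surface protein of activated lymphocytes and dendritic cells, fell by 1.99 (limma, adjusted p = 6.28e-07), the largest mean change of both sub-groups in these lists, while Tnfaip2 rose by 1.48 (1.61e-05), the chemokine Ccl4 by 1.21 (0.000761) and Tnfaip8 by 0.61 (0.000338). Some targets of the pathway rose in the same arrays in which the targets Tnfaip3 and Cd83 fell. By sub-group, 4 of the 29 rose and 3 fell in resistant rats, and 9 rose and 1 fell in susceptible rats. Besides Cd83, those that fell in resistant rats were Ccl2 (−2.91, limma, adjusted p = 0.0106) and Cflar (−0.52, 0.0485), named here after their values were seen. Neither passed in the mean change (0.105 and 0.267). For 0 of the 29 did the difference between the sub-groups' changes pass the test. Between the sub-groups after dosing, 2 of the 91 genes were called, where 0.143% of all probe sets were, both higher in susceptible rats and named here after their values were seen. The endotoxin receptor Tlr4 was higher by 1.88 (limma, adjusted p = 0.0196) and the transcription factor Irf1 by 0.91 (0.00967). The call of Tlr4 ended without resistant postdose replicate 2 or 4 or susceptible postdose replicate 1 (adjusted p = 0.0529 to 0.0585). Both calls ended by the methods' t-test with adjustment (0.217 for Tlr4 and 0.132 for Irf1), which called 0 of 30747 probe sets in this comparison. Irf1 also lost its call by that test without adjustment, since its fold was under 2.

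**Figure D4:**
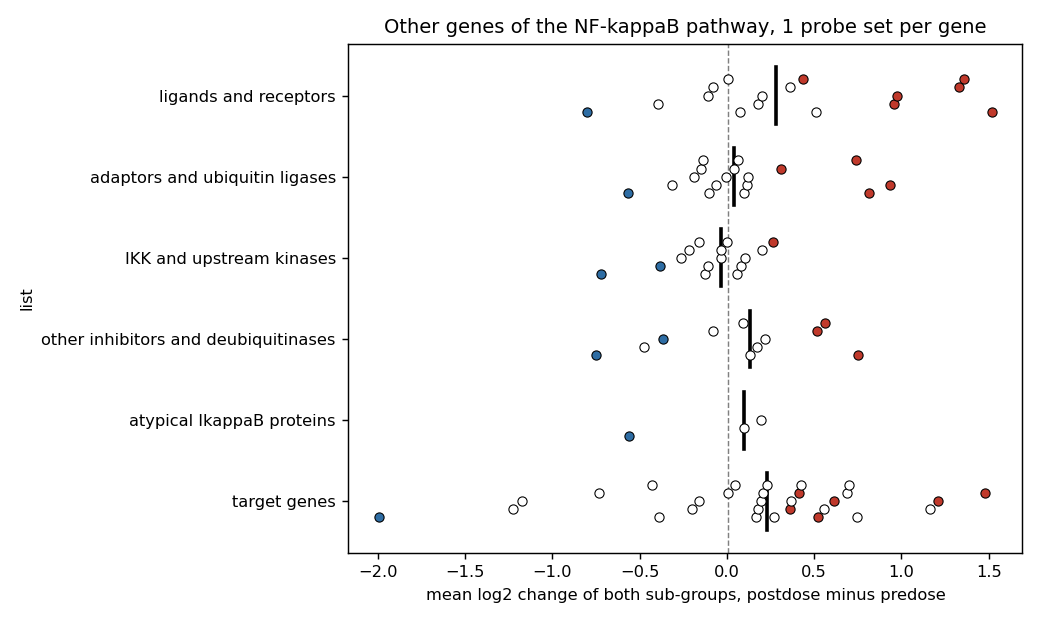
Mean log2 change of both sub-groups (x axis) for 91 other genes of the pathway in 6 lists (y axis), 1 point per gene; red points were called higher, blue lower and white neither, black lines are list medians and the dashed line is the median of all probe sets. Red points are most frequent among ligands and receptors, 6 of 16, and the blue point farthest to the left is Cd83, at −1.99.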

How the data were processed

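Blood RNA of 20 samples was hybridised to Affymetrix whole-genome rat expression arrays, 1 per sample. The authors deposited linear intensity values, 1 per probe set and array, with medians of 187 to 223; the software behind them is not given in the sources used here, and the methods scale each chip to a median of 1000 in ArrayTrack. Here 57 control probe sets were left out, the same median was set on each array and log2 was taken, so a change common to most probe sets is not seen. Probe sets under 100 on all arrays of a fit were dropped; the methods apply this filter on the predose arrays, as was done here for the predose comparison, and the other fits used all 20 arrays. Groups came from the labels. The predose comparison used 10 arrays, the others all 20, with lmFit and eBayes of limma 3.58.1 in R 4.3.3 and an adjusted p (Benjamini-Hochberg, all probe sets) under 0.05. The main fits held no term for the rat, so all postdose tests were unpaired, although by the methods the same rats were bled at both times. The code was tested on simulated data. Array number limits the precision.

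The members and lists were chosen with earlier results of these data known. Named pathway genes were at most the 4 largest mean changes among those called in a list, and the 3 most correlated genes were named for each called member. The alternatives tried were deposited values without scaling, quantile normalization, a filter at 200 or none, an offset of 50, an intensity trend, 1 probe set per gene, only the arrays compared, a replicate block, the methods' t-test at an absolute fold of 2, and leaving out each array. A stretch of the IkappaB proteins was planned but not used here. Plots were made in Python 3.11.15 with matplotlib 3.10.9.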

Additional observations from a re-analysis of the deposited data

Results flagged for a closer look

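Of 28 groups of 5 arrays examined (7 members in 4 groups), 1 held an array far from the rest, where chance flags about 1 in 20. In susceptible rats after APAP, Nfkb1 was 14.73 in replicate 4 and at most 14.49 in the others, a gap of 0.948 of the group's range, which passes Dixon's critical value of 0.71.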

How the results depend on the processing

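The mean change of Tnfaip3 (−0.93 to −0.77 without each array in turn) and of Nfkbib (−0.36 to −0.31) passed the test in all 20 such fits and in all 8 other alternatives, with 2 or 3 members called. In the predose, postdose and interaction comparisons, every alternative run called 0 members. The count in resistant rats, 2, became 0 with only the arrays compared, 1 with the replicate block, 0 by the methods' t-test, since no fold reached 2, 1 by that test adjusted (Nfkbib kept, Tnfaip3 lost), and 1 to 2 without each array. The count in susceptible rats, 1, became 2 with values as deposited and 2 with 1 probe set per gene, 0 with only the arrays compared, 0 by the methods' t-test, 0 by that test adjusted, and 0 to 2 without each array. The cause was not tested. The change of Relb in resistant rats turned from −0.01 to 0.0257 with quantile normalization and 0.00457 as deposited, and ran from −0.0466 to 0.0528 without each array, that of Rela from −0.0936 to 0.0258, and the mean change of Rela from −0.00380 to 0.0795.

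Whether equal replicate numbers pair the samples was not settled. Deviations of 10 same-numbered pairs correlated at −0.16 to 0.20, with 6 over 0.1. Of these 10, 5 were closest to their own number, where each group holds 5 numbers. With the number as a block, calls in resistant rats went from 2 to 1 member, as Nfkbib lost its call (adjusted p = 0.102), and from 1570 to 970 probe sets. Calls in susceptible rats stayed at 1 member and went from 2048 to 1290 probe sets. Tab3, Ripk1 and Zc3h12a no longer passed in the mean change (adjusted p = 0.0538, 0.0744 and 0.0671). Ripk1 also lost its call without resistant predose replicate 1 or 3, resistant postdose replicate 1, 2 or 3, susceptible predose replicate 3, or susceptible postdose replicate 3 or 4 (adjusted p = 0.0516 to 0.0637), and Zc3h12a without predose replicate 3 or 4 or postdose replicate 1 of resistant rats (adjusted p = 0.0507 to 0.0530).

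Over all probe sets, the 1570 calls in resistant rats became 958 with 1 probe set per gene, 968 with only the arrays compared, and 954 and 729 by the methods' t-test without and with adjustment. They became 967 without resistant predose replicate 3 and 1046 without resistant postdose replicate 2. The 2048 in susceptible rats became 910 with only the arrays compared, 1012 and 578 by the methods' t-test, and 1332 without susceptible postdose replicate 3, and the 3777 of the mean change 2230 with 1 probe set per gene. The 44 after dosing became 73 with quantile normalization, 75 with the stricter filter, 206 with the intensity trend, and 559 and 0 by the methods' t-test. They became 17, 7, 18 and 8 without resistant postdose replicate 1, 2, 3 and 4, 9, 13 and 89 without susceptible postdose replicate 1, 3 and 4, and 73 and 83 without resistant predose replicate 2 and 5. The 1 before dosing became 0 with values as deposited, the stricter filter, the intensity trend, 1 probe set per gene, the adjusted methods' t-test and in 8 of the 10 fits that left out an array, 2 without resistant predose replicate 2 or 4 and with an offset of 50, and 370 by the methods' t-test. The 0 of the interaction became 20 with the intensity trend and 2 without resistant predose replicate 1.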
